A study of Rattus norvegicus with 9 samples.

Results

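The genes described here are 9 members of the complement system, namely C1qa, C1qb, C1qc, C1r, C1s, C2, C3, Cfb and Serping1, which were selected by name from a table of 34092 rat genes. They were chosen with their response to PCT already known from these libraries, so their levels and fold changes are a description and carry no test. Rat primary hippocampal neurons were prepared from wild-type fetuses on embryonic day 17 and kept in neurobasal medium with B27. At 7 days in vitro they were given vehicle, 1 nM human aminoprocalcitonin (NPCT) or 1 nM human procalcitonin (PCT) for 24 h, and 3 libraries were sequenced per group. PCT is the parent peptide, and NPCT is the piece cleaved from its amino terminal end. Poly-A RNA was sequenced, and levels are given as FPKM, a fragment count scaled to gene length and by a factor for each library. The 9 symbols fill 10 rows of the table because Cfb has 2 entries, and 8 members passed the minimum mean of 0.5 FPKM that left 15958 genes for the fit.

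Complement is a chain of secreted proteases and recognition proteins that tags cells, debris and, in developing brain, synapses for removal. C1q, built from the chains C1qa, C1qb and C1qc, recognises the target, and the proteases C1r and C1s ride on it. C1s cuts C4 and C2 to start the classical pathway. C3 is the protein on which all activation routes converge, factor B (Cfb) feeds the alternative route, and the C1 inhibitor Serping1 blocks C1r and C1s. In brain the C1q chains are made chiefly by microglia, whereas C3, Serping1 and the C1 proteases can also come from reactive astrocytes.

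The libraries held 13573056 to 17211642 fragments on genes. The cultures were labelled as neurons, and the summed FPKM of 13 neuronal markers was 2296 to 2390 with vehicle, with Stmn2 the highest. Astrocyte markers were as abundant, at a summed 2523 to 2703 over 12 genes led by Gfap, microglia markers summed to 29.7 to 39.8 over 15 genes led by Tyrobp, and oligodendrocyte lineage markers led by Olig1 summed to 475 to 491. The endothelial gene Cldn5 was listed at 0 in every library, and endothelial and pericyte markers, led by Pdgfrb, summed to at most 5.33. Fibroblast markers led by Col1a1 summed to 13.8 to 16.6 with vehicle. NPCT replicate 3 stood apart from the other libraries, with a summed microglia level of 120 against 35.0 and 30.5 in NPCT replicates 1 and 2, so the NPCT differences of the members are given with and without it. The labels number 3 replicates per group while the methods mention pooling of triplicates before extraction, so the spread between libraries may be technical.

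With PCT, 5 of the 8 members measured were far lower than with vehicle, namely the inhibitor Serping1, C3, and the proteases C2, C1s and C1r. Their fall ran from 27.8-fold for Serping1 to 4.27-fold for C1r. The 3 chains of C1q were lower by smaller amounts that stayed within the error of the fit, except that C1qb was called lower when NPCT replicate 3 was left out and when PCT and vehicle were fitted alone. With NPCT the same 5 genes lay close to vehicle. The mean levels of the C1q chains were above vehicle, mainly through NPCT replicate 3, and none of the 3 chains was called in the main fit. In bulk RNA, fewer cells of a type and less RNA per cell cannot be told apart.

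Serping1, the inhibitor of C1r and C1s, was the most abundant member with vehicle, with a mean of 208.8 ± 30.6 FPKM (SD, n = 3) that was exceeded by 1.71% of the genes in the fit. The gene (ENSRNOG00000007457) spans chr3:72161189-72171078 on the minus strand of Rnor_6.0, the build named in the submitters' processing notes. Its FPKM was 232, 174 and 220 in vehicle replicates 1 to 3, 126, 169 and 238 with NPCT, and 5.32, 10.4 and 7.18 with PCT. Every PCT library was thus far under every other library, while NPCT and vehicle overlapped. These levels rest on 4902 to 6728 fragments with vehicle and 149 to 280 with PCT. The level fell by 4.80 on the log2 scale (SE 0.27) with PCT, and the gene held place 3 among the 15958 genes ordered by the size of their fall. With NPCT the difference was -0.27 (SE 0.27), and -0.51 without NPCT replicate 3.

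C3, the central component whose cleavage product coats targets, followed the inhibitor. The gene (ENSRNOG00000046834) spans chr9:9721105-9747167 on the plus strand of Rnor_6.0. Its FPKM was 99.2, 76.0 and 94.4 with vehicle, 63.8, 78.4 and 178 with NPCT, and 3.86, 6.74 and 5.27 with PCT. The PCT libraries were again apart from all others, and NPCT replicate 3 was the highest of the 9 while NPCT replicate 1 was below every vehicle library. The level fell by 4.09 (SE 0.35) with PCT, 17.0-fold, which was place 8 of all genes. With NPCT the difference was 0.11 (SE 0.35), and -0.34 without NPCT replicate 3. The ratio of C3 to Serping1 FPKM was 0.427 to 0.436 with vehicle, 0.463 to 0.748 with NPCT and 0.646 to 0.734 with PCT. Both peptides thus gave ratios above all vehicle libraries, and the ranges of the peptides overlapped.

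**Figure D1:**
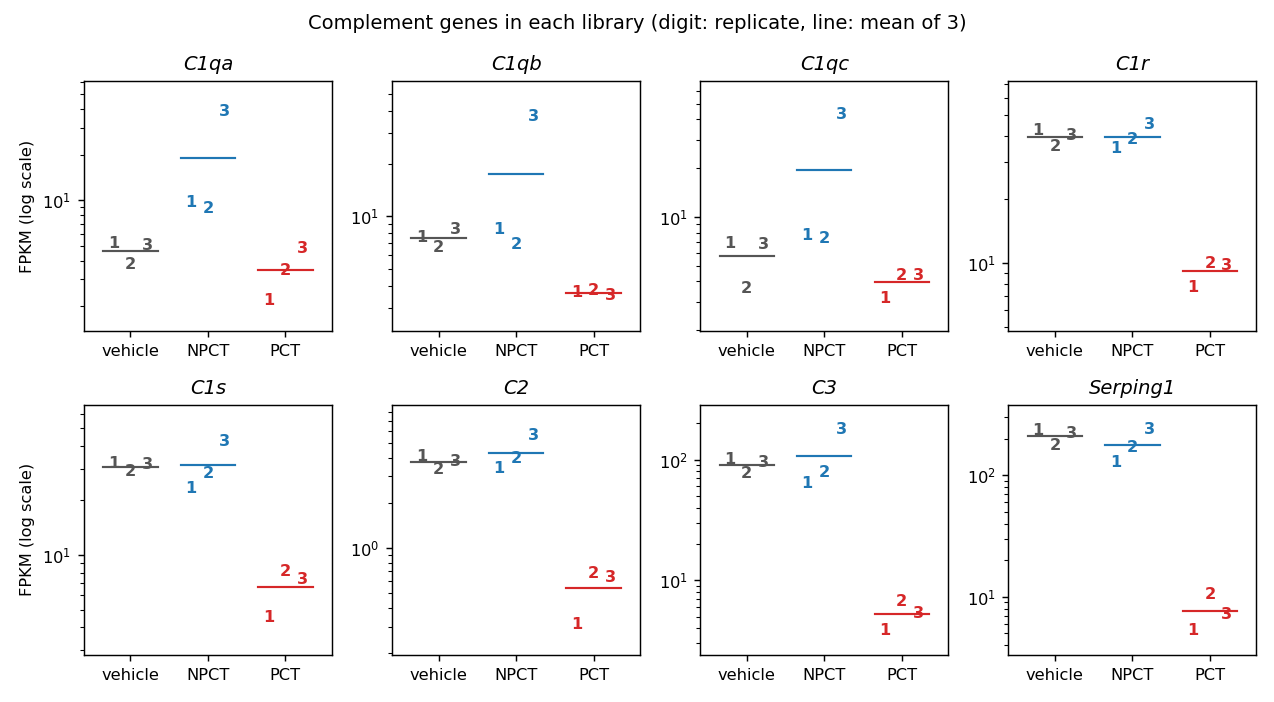
FPKM of 8 complement genes in each of the 9 libraries on log axes, with the group on the horizontal axis, a digit for each replicate and a line at the mean of 3. C1r, C1s, C2, C3 and Serping1 are low in all PCT libraries, and NPCT replicate 3 is the highest NPCT library in every panel.

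C1r and C1s, the serine proteases carried by C1q, lie tail to tail on chromosome 4 with 6762 bases between them. C1r (ENSRNOG00000011796) spans chr4:157125998-157136829 on the plus strand, and its FPKM was 42.5, 35.6 and 39.9 with vehicle, 34.8, 38.4 and 45.2 with NPCT, and 7.66, 10.03 and 9.79 with PCT. C1s (ENSRNOG00000011971) spans chr4:157143592-157155609 on the minus strand, and its FPKM was 32.0, 28.8 and 31.4 with vehicle, 23.4, 28.1 and 42.1 with NPCT, and 4.51, 8.09 and 7.31 with PCT. For both proteases the PCT libraries were below all others, and the NPCT libraries lay on both sides of the vehicle libraries. C1r fell by 2.10 (SE 0.13) and C1s by 2.24 (SE 0.25) on the log2 scale with PCT. The ratio of C1r to C1s was 1.23 to 1.33 with vehicle and 1.24 to 1.70 with PCT, so both were reduced by about the same factor. The differences with NPCT were 0.00 (SE 0.13) for C1r and -0.02 (SE 0.25) for C1s, and -0.10 and -0.26 without NPCT replicate 3.

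The inhibitor and the proteases it blocks changed by different factors. Serping1 FPKM was 4.89 to 5.51 times that of C1r with vehicle, 3.62 to 5.26 times with NPCT, and 0.694 to 1.04 times with PCT. Against C1s the ratio was 6.04 to 7.25 with vehicle, 5.39 to 6.02 with NPCT and 0.983 to 1.29 with PCT. The excess of inhibitor RNA over protease RNA seen with vehicle was therefore near parity in the PCT libraries. These are ratios of RNA levels, and protein was not measured.

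C2, the protease cut by C1s, had the lowest mean of the measured members in every group. The gene (ENSRNOG00000051235) spans chr20:4542340-4561152 on the minus strand, and its FPKM was 4.06, 3.35 and 3.79 with vehicle, 3.41, 3.93 and 5.62 with NPCT, and 0.311, 0.675 and 0.635 with PCT. Only 12 to 29 fragments per PCT library stood behind these values, against 130 to 162 with vehicle. The groups PCT and vehicle did not overlap, and C2 fell by 2.63 (SE 0.28), 6.20-fold. The size depends on the pseudocount at this low level, and with a pseudocount of 1 it fell by 1.63. With NPCT the difference was 0.18 (SE 0.28), and -0.03 without NPCT replicate 3.

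Factor B, the counterpart of C2 in the alternative pathway, could not be described. The entry ENSRNOG00000000419 (chr20:4536203-4561066) held 0, 3 and 0 fragments with vehicle, 0, 2 and 2 with NPCT and 0, 0 and 1 with PCT, and the entry ENSRNOG00000051158 (chr20:4536212-4542073) held 0 in all libraries. The longer Cfb model covers 99.5% of the C2 gene and the whole of the shorter model on the same strand. Fragments in shared exons may have been given to neither gene, so the level of Cfb is uncertain and that of C2 is uncertain as well.

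The C1q chains, which together form the recognition part of C1, sit next to each other within 17697 bases of chromosome 5 on the minus strand. C1qb (ENSRNOG00000012749, chr5:155246447-155252003) had an FPKM of 7.59, 6.63 and 8.36 with vehicle, 8.39, 6.88 and 37.1 with NPCT, and 3.67, 3.77 and 3.53 with PCT. C1qc (ENSRNOG00000012804, chr5:155255005-155258392) had 6.82, 3.63 and 6.72 with vehicle, 7.68, 7.35 and 43.1 with NPCT, and 3.15, 4.32 and 4.34 with PCT. C1qa (ENSRNOG00000012807, chr5:155261250-155264143) had 5.16, 3.78 and 5.01 with vehicle, 9.69, 8.78 and 38.2 with NPCT, and 2.19, 3.42 and 4.79 with PCT. NPCT replicate 3 thus carried 618 to 726 fragments per chain where the vehicle libraries carried 59 to 131. Only C1qb had all PCT libraries under all vehicle libraries, and the PCT and vehicle ranges of C1qa and C1qc overlapped.

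The differences of the C1q chains from vehicle had wide intervals, since the fit shares 1 spread over all groups, NPCT replicate 3 included. With PCT the log2 difference was -1.02 for C1qb (95% interval -2.18 to 0.15), -0.49 for C1qc (-1.85 to 0.88) and -0.47 for C1qa (-1.63 to 0.70). With NPCT it was 1.66 for C1qa (0.50 to 2.83), 1.28 for C1qc (-0.09 to 2.64) and 0.78 for C1qb (-0.39 to 1.95). Without NPCT replicate 3 the NPCT differences shrank to 0.98, 0.44 and 0.02 in the same order, while the PCT difference of C1qb kept its size at -1.02 with its SE down from 0.52 to 0.12. C1qa was higher than every vehicle library in all 3 NPCT libraries. The ratio of C1qa to C1qb was 0.570 to 0.681 with vehicle and 1.03 to 1.27 with NPCT, without overlap, and 0.596 to 1.36 with PCT.

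A gene was called at an adjusted p of at most 0.05 with a fold change above 1.5 (limma, Benjamini-Hochberg over all genes in the fit). By this rule 5 of the 8 members were called lower with PCT, where 1.72% of all genes were. Every PCT library was below every vehicle library in 6 of 8 members, C1qb being the sixth, and in 11.9% of all genes. The members were picked for this pattern, so these shares describe the choice. With NPCT, limma called 0 of 8 members (0.219% of all genes were called). At an unadjusted p under 0.05 was 1 of 8, C1qa, where 4671 of all 15958 genes were. Limma-voom on the recovered fragments also called 0 of 8, and 390 of all genes, so these counts are not above the shares over all genes.

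**Figure D2:**
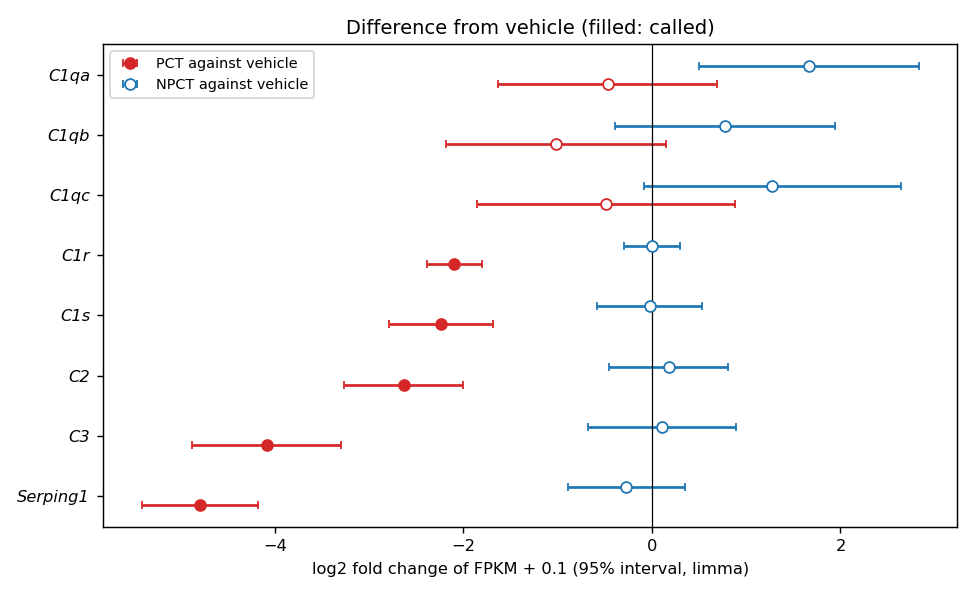
Log2 fold change of FPKM + 0.1 from vehicle with PCT (red) and NPCT (blue) for 8 complement genes on the vertical axis, with 95% intervals from limma and filled symbols for called genes. PCT differences run from -4.80 for Serping1 to -0.47 for C1qa, and the NPCT interval lies clear of 0 for C1qa alone.

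Set against each other at the same dose and time, the parent peptide and its amino-terminal piece gave different levels of most members. Serping1 was higher with NPCT than with PCT by 4.53 (SE 0.27), C3 by 4.19 (SE 0.35), C2 by 2.81 (SE 0.28), C1s by 2.21 (SE 0.25) and C1r by 2.10 (SE 0.13). C1qa was higher by 2.13 (SE 0.51), C1qb by 1.79 (SE 0.52) and C1qc by 1.76 (SE 0.60). Of the 8 members 7 were called higher with NPCT, all but C1qc, where 4.38% of all genes were. Limma-voom called 6, without C1qb, and the fit of only the 2 groups called 5, without C1qa and C1qb. Over all 15958 genes they called 959 and 454. C1qb was called in 8 of 19 alternatives. This comparison shares its PCT libraries with the comparison of PCT and vehicle. Without NPCT replicate 3 the differences were 4.29 for Serping1, 3.75 for C3, 2.61 for C2, 1.97 for C1s and 1.99 for C1r. Those of the C1q chains were then 1.45, 1.03 and 0.93 for C1qa, C1qb and C1qc. The C1qa call was lost without PCT replicate 1 or 2 (log2 difference 1.85 and 2.16), and the C1qb call was kept in 2 of 9 fits that left out a library, those without NPCT replicate 2 or 3, while its difference in the other 7 was 1.77 to 2.10.

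With vehicle the order of the mean levels was Serping1, C3, C1r, C1s, C1qb, C1qc, C1qa and C2. The ranges of neighbours in this order were apart down to C1s and C1qb, and those of C1qb and C1qc, C1qc and C1qa, and C1qa and C2 overlapped. With PCT the order was C1r (9.16 ± 1.30 FPKM, SD, n = 3), Serping1 (7.64 ± 2.59), C1s (6.64 ± 1.88), C3 (5.29 ± 1.44), C1qc (3.94 ± 0.680), C1qb (3.65 ± 0.122), C1qa (3.46 ± 1.30) and C2 (0.540 ± 0.200). All neighbours in that order overlapped except C1qa and C2, so the wide spacing of the first 5 places with vehicle was gone. With NPCT the order began as with vehicle, and the C1q chains stood at means of 17.4 to 19.4 FPKM with SDs of 16.7 to 20.6.

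The members were read as 2 sets by their course over the libraries. Among Serping1, C3, C1r, C1s and C2 the 10 pairwise Pearson correlations of log2 FPKM over the 9 libraries were 0.988 to 0.997, and among the C1q chains the 3 correlations were 0.908 to 0.963. Between the sets the 15 correlations were 0.55 to 0.79. These are descriptions, since all genes share the same libraries. The C1q chains were set against other members when the members were chosen. The correlations also carry the PCT fall for which the members were picked. Averaged over its genes and relative to vehicle, the first set was at -3.61, -2.84 and -3.06 on the log2 scale in PCT replicates 1 to 3, and the C1q chains were at -0.95, -0.58 and -0.45. In NPCT replicate 3 the first set was at 0.49 and the C1q chains at 2.75. NPCT replicate 3 was the highest NPCT library in 8 of 8 members, as it was in 38.0% of all genes.

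Markers of microglia also differed between the groups. Of 15 microglia markers 13 passed the filter, all of them lower with PCT than with vehicle, and limma called 5 lower (Tyrobp, Laptm5, Aif1, Csf1r and Cx3cr1), where 1.72% of all genes were. Limma-voom called 3 of the 13 (Laptm5, Cx3cr1 and Ptprc), where it called 375 of all 15958 genes in either direction. When each library was left out in turn, Cx3cr1 kept its call in 9 of 9 fits, Laptm5 in 7, Aif1 in 5, Tyrobp in 2 and Csf1r in 1. Their summed level was 30.5 to 120 FPKM with NPCT and 10.3 to 12.3 with PCT, and their median relative to vehicle was -1.86, -1.81 and -1.31 in PCT replicates 1 to 3. In NPCT replicates 1 to 3 it was -0.02, -0.22 and 1.73, where the C1q chains were at 0.56, 0.40 and 2.75. In each PCT library the microglia median lay above the mean of the set of Serping1 and below that of the C1q chains. C1qb over Tyrobp, an adaptor of microglial receptors, was 1.16 to 1.30 with vehicle, 1.26 to 1.64 with NPCT and 2.66 to 2.94 with PCT. C1qc over Tyrobp was 0.694 to 1.17, 1.16 to 1.91 and 2.35 to 3.37 in the same order, and C1qa over Tyrobp 0.694 to 0.884, 1.46 to 1.77 and 1.63 to 3.62, where NPCT and PCT overlapped. The PCT ratios rest on 11 to 14 fragments of Tyrobp, and a ratio depends on the marker chosen. Cd68 fell least of the 13 markers with PCT, and the others differed by -2.57 (Cx3cr1) to -0.63 (Fcgr2b). C1qa (-0.47) and C1qc (-0.49) thus fell less than every marker but Cd68. Besides Cd68, the markers Fcgr2b, P2ry12 (-0.71) and Gpr34 (-0.95) fell less than C1qb (-1.02). Over Cd68, a lysosomal protein of microglia that differed with PCT by -0.17 (SE 0.48), C1qb was 1.83 to 2.38 with vehicle, 2.35 to 2.85 with NPCT and 0.992 to 1.47 with PCT. C1qa over Cd68 was 1.18 to 1.43, 2.71 to 3.13 and 0.875 to 1.41 in the same order, and C1qc over Cd68 1.14 to 1.92, 2.15 to 3.32 and 1.14 to 1.28. Astrocyte markers summed to 2482 to 2756 with NPCT and 2176 to 2246 with PCT, and 5 of the 11 that passed the filter were called lower with PCT (Aldoc, S100b, Aqp4, Slc1a2 and Aldh1l1), with a median of -0.32 over the list. Aldoc and Aldh1l1 kept their calls in 9 of 9 fits that left out a library, Aqp4 in 8, S100b in 5 and Slc1a2 in 3. Limma-voom called the same 5 astrocyte markers. Gfap differed the other way, by 0.25 (SE 0.08, adjusted p = 0.147 by limma). Their part in the complement result was not tested. Of the neuronal and oligodendrocyte markers limma called 0 of 13 and 0 of 10 with PCT, and limma-voom called 0. Over all genes limma called 368 and limma-voom 375. At an unadjusted p under 0.05 were 4 and 3, where 3017 of all 15958 genes were. Olig1, the highest oligodendrocyte marker, was lower by 0.51 (SE 0.05, adjusted p = 0.00161 by limma) but short of the 1.5-fold cut. Of the 10 oligodendrocyte markers 8 were higher with PCT. Of the fibroblast markers Col3a1 rose (0.87, SE 0.19, adjusted p = 0.0413 by limma), a call kept in 1 of 9 fits that left out a library and made by limma-voom as well. All 6 fibroblast markers that passed the filter were higher with PCT, with a median of 0.34.

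**Figure D3:**
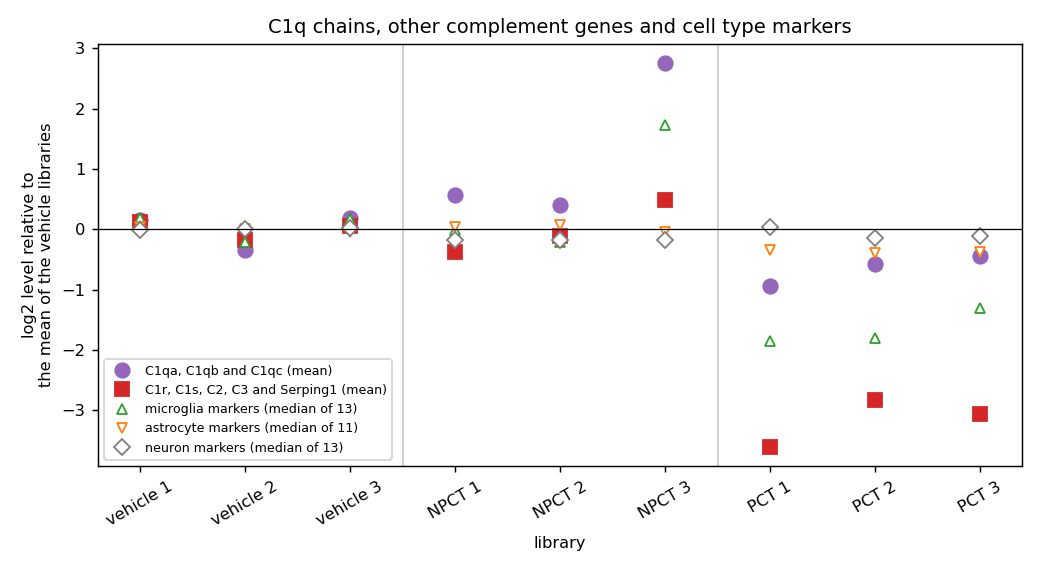
Log2 level set against the vehicle mean (vertical axis) in each of the 9 libraries (horizontal axis) for the mean of the C1q chains, the mean of the other measured members, and the median of the microglia, astrocyte and neuron markers. In PCT libraries the set of Serping1 lies lowest at -3.61 to -2.84, and in NPCT replicate 3 the C1q chains lie highest at 2.75.

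Upstream sequence was found for 4 of the 9 members in the RefSeq promoters of GRCr8, a later build than that of the expression table, and is shown because these genes fell together or split into the 2 sets. The last 120 bases before each annotated start are printed 5′ to 3′ on the strand of the gene. Capitals mark a match to 1 of 4 motifs searched on both strands of the window from 250 bases before to 50 after the start. The motifs were the STAT site GAS (TTCNNNGAA), the interferon element ISRE (GAAANNGAA), the PU.1 core (GAGGAA) and the NF-kB consensus.
C3: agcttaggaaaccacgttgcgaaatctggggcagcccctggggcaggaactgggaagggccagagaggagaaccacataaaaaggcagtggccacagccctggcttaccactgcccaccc
C1r: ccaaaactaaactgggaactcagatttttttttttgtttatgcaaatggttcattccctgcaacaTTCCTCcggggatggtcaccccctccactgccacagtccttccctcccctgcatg
C1qb: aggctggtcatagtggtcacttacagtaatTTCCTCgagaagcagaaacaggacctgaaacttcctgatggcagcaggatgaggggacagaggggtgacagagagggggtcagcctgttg
C1qa: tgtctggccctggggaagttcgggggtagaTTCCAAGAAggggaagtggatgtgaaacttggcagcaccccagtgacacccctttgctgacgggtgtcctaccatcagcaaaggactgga

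These stretches lie at chr9:2201340-2201459 (minus strand) for C3, chr4:159098893-159099012 (plus) for C1r, chr5:154407828-154407947 (minus) for C1qb and chr5:154419934-154420053 (minus) for C1qa in GRCr8. C1qa held a GAS at -90, counted to the first base of the match from the start, and C1r a PU.1 core on the opposite strand at -55. C1qb held PU.1 cores at -247 and -90, the first of which overlaps a match to the NF-kB consensus at -245. In C3 none of the 4 motifs was found in the window. Of 33469 rat promoters of this length 8.87% held a GAS, 9.71% an ISRE, 27.6% a PU.1 core and 7.51% an NF-kB match. A match is a string of letters and does not show that a factor binds there.

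The rest of the complement pathway was read from a list of 42 genes ordered by role, of which 39 were in the table and 16 passed the filter. With PCT 4 of these 16 were called lower and 0 higher, against 1.72% of all genes called lower, and the median over the 16 was -0.14 against 0.00 over all genes. Clusterin (Clu), a soluble inhibitor of the terminal complex, was 455, 457 and 480 FPKM with vehicle, 429, 457 and 608 with NPCT and 206, 245 and 192 with PCT. It fell by 1.12 with PCT (SE 0.13, adjusted p = 0.00326 by limma), with all 3 PCT libraries under all others. Itgb2, the beta chain of the complement receptors CR3 and CR4, fell by 2.64 (SE 0.34, adjusted p = 0.00395 by limma). C3ar1, the receptor for the fragment C3a, fell by 1.87 (SE 0.36, adjusted p = 0.0260 by limma), and Itgax, the alpha chain of CR4, by 2.20 (SE 0.48, adjusted p = 0.0393 by limma).

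The receptor genes were low, and C3ar1 and Itgax lost their calls, with differences of similar size, when a library was left out. C3ar1 had 17 to 19 fragments per PCT library, Itgb2 10 to 24 and Itgax 4 to 11, and the Itgax model lies wholly within that of Itgad on the same strand, so its level is uncertain. Leaving out any 1 of the 9 libraries ended the Itgax call (log2 difference -2.44 to -1.97), and leaving out any vehicle or PCT library ended that of C3ar1 (-2.00 to -1.78). Clu and Itgb2 were called in all 9 of those fits. Limma-voom, which called 375 of all 15958 genes with PCT, called Clu, Itgb2 and Itgax but not C3ar1. The difference of C3ar1 over all 19 alternatives was -2.03 to -1.09. With a pseudocount of 1 Itgb2 fell by 1.41, and the differences of C3ar1 and Itgax, no longer called, were -1.09 and -0.77.

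Of the 7 measured membrane regulators, Cd59 was the highest at a mean of 43.9 FPKM over the 9 libraries. Limma called 0 of the 7 in each of the 3 comparisons. Over all 15958 genes it called 368 with PCT, 35 with NPCT and 919 between the peptides, so 0 of 7 is near the share over all genes. Masp1, a protease of the lectin pathway, was the highest of its role at 34.9 FPKM and differed with PCT by -0.18 (SE 0.07, adjusted p = 0.181 by limma). C8g, at 2.66 FPKM, was the only 1 of 7 terminal components to pass the filter, and it differed with PCT by -0.03 (SE 0.22). C4a, cut by C1s alongside C2, averaged 0.140 FPKM, and C4a and C4b were both below the filter. They are near-identical copies, and C4b lies almost wholly within another gene model, so their counts are uncertain.

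With NPCT, limma called 0 of the 16 pathway genes, where 35 of all 15958 genes were called. At an unadjusted p under 0.05 were 3 of the 16, against 4671 of all genes, so neither count exceeds the share over all genes. Limma-voom called 1 of the 16, Cfp, and 390 of all 15958 genes. The nearest was properdin (Cfp), which stabilises the alternative convertase, with 7.32, 6.95 and 8.60 FPKM with vehicle, 11.1, 12.2 and 16.5 with NPCT and 5.06, 6.38 and 6.75 with PCT. All NPCT libraries were above all vehicle and all PCT libraries, with a difference from vehicle of 0.78 (SE 0.17, adjusted p = 0.0516 by limma) and from PCT of 1.11 (SE 0.17, adjusted p = 0.00477). Without NPCT replicate 3 these were 0.61 and 0.94. Between the peptides 5 of the 16 were called higher with NPCT, namely Cfp, Clu (1.21), Itgb2 (2.82), C3ar1 (2.30) and Itgax (1.95), against 4.38% of all genes. The Itgax call of that comparison was lost in 5 of 9 fits that left out a library, those without vehicle replicate 1, PCT replicate 1 or 2, or NPCT replicate 2 or 3, while the difference over all 9 fits stayed between 1.73 and 2.23.

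**Figure D4:**
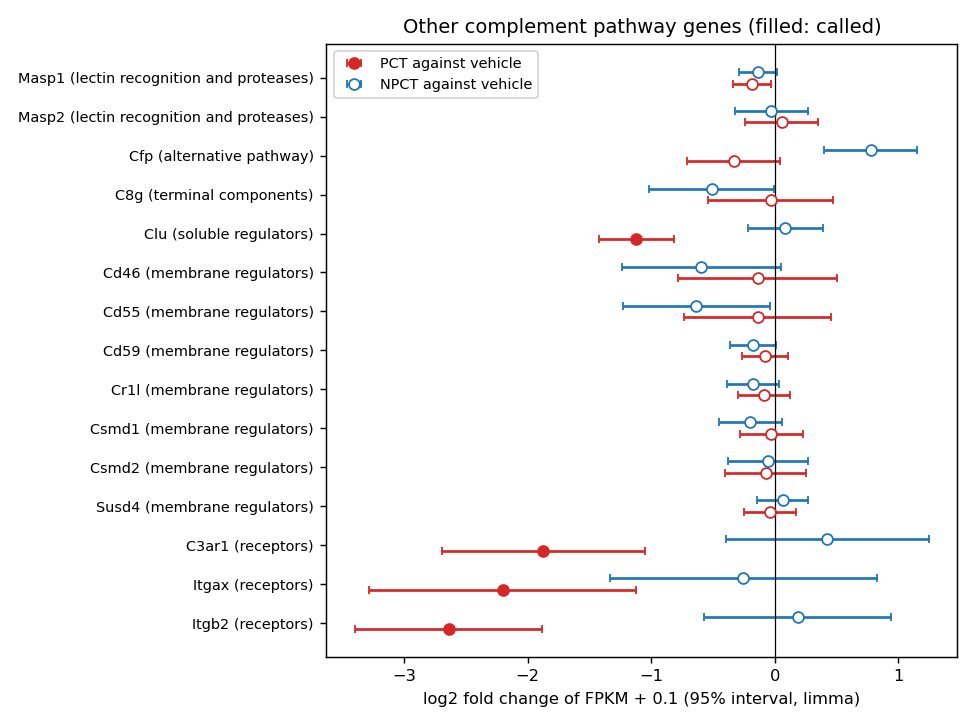
Log2 fold change of FPKM + 0.1 from vehicle with PCT (red) and NPCT (blue) for 15 of the 16 other complement genes that passed the filter, labelled with their role, with 95% intervals from limma and filled symbols for called genes. Clu, C3ar1, Itgax and Itgb2 are called lower with PCT, and no membrane regulator is called.

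Genes outside complement that share the C1q domain were read separately. Of 17 such genes, among them the C1qtnf and C1ql families, 12 passed the filter. Limma called 0 with PCT and 0 with NPCT against vehicle, with 1 and 3 at an unadjusted p under 0.05. Over all 15958 genes limma called 368 with PCT and 35 with NPCT, and 3017 and 4671 had such a p. The counts of the 12 are thus near or below the shares over all genes. Limma-voom called 0 with PCT and 1 with NPCT, C1qtnf5, where it called 375 and 390 of all genes. Between the peptides limma called 1, C1qtnf4, and limma-voom 2, C1qtnf4 and C1qtnf6, where they called 919 and 959 of all genes. C1qtnf6 was higher with NPCT than with PCT by 1.05 (SE 0.32, adjusted p = 0.0544 by limma). The highest, C1qtnf4, had 76.7, 62.7 and 80.7 FPKM with vehicle, 105, 95.3 and 88.6 with NPCT and 62.6, 52.7 and 73.7 with PCT, and was higher with NPCT than with PCT by 0.62 (SE 0.13, adjusted p = 0.0188 by limma). That call was lost without PCT replicate 1 or 2 or NPCT replicate 1 or 2, with differences of 0.50 to 0.63. A list of 10 cytokine genes was read as possible inducers of complement transcription, a role not established for Csf1 and Il34. Of these 10 genes 4 passed the filter. Lif rose by 1.39 with PCT (SE 0.27, adjusted p = 0.0256 by limma), Il34 fell by 1.14 (SE 0.24, adjusted p = 0.0366), and Csf1, the highest of the 4, differed by 0.39 (SE 0.16, adjusted p = 0.234). The Lif call was lost without any single vehicle library or PCT replicate 2 or 3 (difference 1.16 to 1.54). The Il34 call was lost without any single vehicle library, PCT replicate 1 or 2 or NPCT replicate 2 (-1.26 to -1.04). Ifng was listed at 0 in every library, and Il6, Tnf, Il1a, Ifnb1 and Osm were below the filter.

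The genes beside the members were also read. At the 5 loci, the nearest protein-coding gene on either side that passed the filter was looked up after the values had been seen. Limma called 0 of these 10 neighbours with PCT, with 4 at an unadjusted p under 0.05 and 0 called by limma-voom. Over all 15958 genes limma called 368 and limma-voom 375, so 0 called of 10 is near the share over all genes. An unadjusted p under 0.05 was found in 3017 of all genes, and 4 of 10 is above that share. The largest difference among them was that of C1rl, a protease related to C1r that ends 2551 bases before it, at -1.21 (SE 0.36, adjusted p = 0.0998). Ube2l6 differed by -0.47 (SE 0.17) and Gpr108 by -0.26 (SE 0.11). Nelfe, which overlaps the longer Cfb model by 7 bases, differed by 0.29 (SE 0.11).

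The genes outside the members whose course was most like that of a member were sought by Pearson's r of log2 levels over the 9 libraries. The search covered 10057 genes with a mean of at least 5 FPKM. For Serping1 these were Chi3l1 (r = 0.997), Lcn2 (0.997), Smpdl3a (0.996), Mmp2 (0.995) and Vat1l (0.993). The member C1r had a higher r with Serping1 (0.9973) than Chi3l1 (0.9969). Lcn2, the secreted iron-siderophore carrier lipocalin-2, averaged 1184 FPKM with vehicle, 899 with NPCT and 47.8 with PCT, and Chi3l1, a secreted chitinase-like protein, 161, 158 and 12.97. For C3 they were Tf (0.998), Fam129a (0.997), Adgre1 (0.997), Ctsh (0.996) and Chi3l1 (0.995), where Tf, the iron carrier transferrin, averaged 161, 167 and 16.7 FPKM. For the mean of the C1q chains they were Shc1 (0.969), Sparc (0.963), Sat1 (0.955), Pltp (0.955) and Ltbr (0.954), and Sparc, a matrix-associated glycoprotein, averaged 414, 474 and 376 FPKM. The values of r describe 9 libraries that all genes share.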

How the data were processed

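The authors aligned reads with HISAT2 2.0.5 to Rnor_6.0, counted them on genes with featureCounts 1.5.0-p3 and deposited the result as FPKM. These versions come from the submitters' processing notes, which also name StringTie 1.3.3b, CASAVA and DESeq2 1.20.0. FPKM times gene length gave whole fragments in 100% of values within 0.1, which recovered the depth. PCR duplicates were not told apart. Median-ratio scaling left every library at a factor of 1, so the FPKM were already balanced in this way. Limma-voom scaled the fragments to library totals, so that alternative also changed the scaling. Genes with a mean of at least 0.5 FPKM were fitted as log2(FPKM + 0.1), 1 mean per group over 9 libraries, with limma 3.58.1 in R 4.3.3 (eBayes with trend) and Benjamini-Hochberg adjustment over 15958 genes. Calls needed an adjusted p up to 0.05 together with a fold change over 1.5. A fold change on this scale understates that of low genes. The fit was tested on simulated data, and the outcome of that test is not reported here.

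The members and lists were chosen with earlier results of these data known. Named genes were the members, pathway, C1q-domain and inducer genes called in any comparison, and the highest gene of each role and list. Also named were the 5 genes outside the members most alike to Serping1, C3 and the C1q mean. The neighbours and the called markers were named after their values were seen. Cd68, the microglia marker that fell least with PCT, was named outside these rules. Alternatives were other pseudocounts, filters and normalizations, a 2-group fit, a replicate block, limma-voom, removal of the gene length trend and leaving out each library. Mbl2, Csmd3, Itgam and Pecam1 were not analysed here, and 1 gene of the pathway list is not reported here. Promoters came from RefSeq, GRCr8.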

Additional observations from a re-analysis of the deposited data

How the results depend on the processing

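Over 19 alternatives, Serping1, C3, C1r, C1s and C2 were called lower with PCT than with vehicle, and higher with NPCT than with PCT, in all 19. Of these, FPKM as deposited is the same fit, since all scaling factors were 1. C1qb was called lower with PCT in 2, the fit of only 2 groups and the fit without NPCT replicate 3. For the members in each comparison and the called genes of the pathway, C1q-domain and inducer lists, 38 differences in all, 720 values were computed under an alternative, of which 638 kept their direction and side of the threshold, 65 lost the call, 3 gained it and 14 changed sign. Among these 38, signs changed for members with NPCT against vehicle. C1r came to -0.0295 with quantile normalization and -0.105 to 0.0840 when a library was left out. C1s came to 0.0228 with limma-voom, 0.00629 with the gene length trend removed and -0.264 to 0.160 when a library was left out. C2 and C3 came to -0.0272 to 0.327 and -0.339 to 0.400 when a library was left out. The causes were not tested.

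The other pathway genes called with PCT numbered 2 rather than 4 with a pseudocount of 1, and 2 to 4 when a library was left out. With NPCT they numbered 1 (Cfp) rather than 0 at a mean FPKM of at least 1, with quantile normalization, in the fit of only 2 groups, with the replicate block and with limma-voom, and 0 to 1 when a library was left out (1 without PCT replicate 1 or 3). Replicate numbers did not pair the libraries, whose same-numbered deviations correlated at -0.07 to 0.03. With the replicate block 1 member rather than 0, C1qa, was called with NPCT, and Itgax lost its call with PCT. Over all genes, calls with PCT against vehicle ranged from 172 to 391 around 368, with NPCT against vehicle from 0 to 579 around 35, and between the peptides from 454 to 1625 around 919. Depth limits C2, Itgax, Itgb2 and C3ar1 with PCT.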
